A study of Mus musculus with 8 samples.

Results

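The 30 genes described here encode enzymes of cholesterol and fatty acid synthesis together with the regulators that control them, and they were taken by symbol from a list of sterol route enzymes, lipogenic enzymes and SREBP regulators. They make up 30 of the 31053 gene identifiers counted. Transcripts were counted from their polyadenylated 3′ ends (QuantSeq) in RPE eyecups of C57/Bl6 mice at postnatal day 11 (P11). One group held 4 libraries from Bbs8-/- mice and the other held 4 libraries from Bbs8+/+ littermates, with no further treatment in either. Bbs8, annotated as Ttc8, encodes a subunit of the BBSome, a complex that moves cargo in and out of primary cilia. The knockout was carried by every cell of the animal and not by the RPE alone, and an eyecup holds the RPE together with choroid and sclera after the retina, lens, muscle and fat are dissected away, so the counts are those of a mixed tissue.

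Cholesterol is built from acetyl-CoA. The early enzymes make mevalonate and then short isoprenoid units, which are joined to squalene or drawn off for dolichol, ubiquinone and lipid anchors on proteins. Squalene is closed into lanosterol and trimmed step by step to cholesterol. Fatty acids start from the same acetyl-CoA and are extended and desaturated by separate enzymes. SREBP transcription factors activate both routes. When membranes are rich in sterol, Insig proteins hold SREBP and its escort Scap in the endoplasmic reticulum, and when sterol is low the complex leaves and the factor is cut free. The RPE handles large amounts of lipid because it takes up photoreceptor outer segments, and at P11 those segments are still growing.

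The promoters of the 4 genes whose levels are followed most closely below are shown first, because SREBP acts on these routes through short promoter elements. Each window runs from 250 bases before to 50 bases after the annotated start and is taken from RefSeq on build GRCm38.p6, read 5′ to 3′ on the strand of the gene. Capitals mark matches, on either strand, to TCACNCCAC (a sterol regulatory element core), CCAAT (the core bound by NF-Y) and GGGCGG (the core bound by Sp1), and no base was shared between matches in these windows. Hmgcs1 lies on the plus strand at chr13:119690101-119690400, Mvd on the minus strand at chr8:122443373-122443672, Insig1 on the plus strand at chr5:28071162-28071461 and Elovl6 on the plus strand at chr3:129532136-129532435.
Hmgcs1: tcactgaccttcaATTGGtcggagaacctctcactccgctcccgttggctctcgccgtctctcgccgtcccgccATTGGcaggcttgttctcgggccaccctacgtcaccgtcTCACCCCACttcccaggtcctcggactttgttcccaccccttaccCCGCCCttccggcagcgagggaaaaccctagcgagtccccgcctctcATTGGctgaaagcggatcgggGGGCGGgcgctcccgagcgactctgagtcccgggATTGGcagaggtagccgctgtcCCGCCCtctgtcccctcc
Mvd: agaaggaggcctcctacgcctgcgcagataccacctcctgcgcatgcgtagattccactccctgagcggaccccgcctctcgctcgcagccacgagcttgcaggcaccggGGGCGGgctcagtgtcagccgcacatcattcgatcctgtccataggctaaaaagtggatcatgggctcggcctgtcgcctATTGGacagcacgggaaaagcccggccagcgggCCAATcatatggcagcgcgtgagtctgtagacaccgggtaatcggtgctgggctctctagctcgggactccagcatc
Insig1: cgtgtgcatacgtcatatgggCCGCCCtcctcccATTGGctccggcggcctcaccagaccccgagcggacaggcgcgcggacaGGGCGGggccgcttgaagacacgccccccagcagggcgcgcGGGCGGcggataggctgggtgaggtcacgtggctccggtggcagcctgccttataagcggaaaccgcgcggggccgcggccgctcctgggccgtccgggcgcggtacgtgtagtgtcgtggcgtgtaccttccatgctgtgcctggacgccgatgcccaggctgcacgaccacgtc
Elovl6: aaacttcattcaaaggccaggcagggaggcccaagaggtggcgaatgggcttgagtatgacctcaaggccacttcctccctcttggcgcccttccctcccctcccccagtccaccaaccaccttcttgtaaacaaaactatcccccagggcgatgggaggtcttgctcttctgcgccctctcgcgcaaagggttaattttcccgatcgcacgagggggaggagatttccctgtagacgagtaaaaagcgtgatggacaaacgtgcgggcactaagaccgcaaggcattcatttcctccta
The Hmgcs1 window held TCACCCCAC at position -137 from the start, 4 matches to CCAAT and 3 to GGGCGG. The Mvd window held 2 matches to CCAAT and 1 to GGGCGG, the Insig1 window held 1 and 3, and the Elovl6 window held none of the 3 motifs. Among the 24 members with an entry in the promoter table, 1 (4.17%) held TCACNCCAC, 19 (79.2%) held CCAAT and 18 (75.0%) held GGGCGG. Over the 27025 genes in that table the shares were 1.22%, 37.9% and 35.9%. No entry was matched for Fdps, Fdft1, Sqle, Stard4, Scd1 and Scd2. A match describes the letters of the window and does not show that a factor binds there.

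Total gene counts were between 1636725 and 2884983 per library, and 3 counts, the smallest signal regarded as measurable, equalled 1.04 to 1.83 CPM (counts relative to the total gene counts of the library). All levels below are CPM after TMM normalization. Ttc8 checked the labels: it stood at 14.65 to 21.64 CPM in Bbs8+/+ and at 2.293 to 9.703 CPM in Bbs8-/-, which is -1.95 on the log2 scale with a standard error (SE) of 0.317 (edgeR quasi-likelihood test with Benjamini-Hochberg adjustment, FDR 2.74e-06). Of 12 RPE markers, Best1 had 0 to 10 counts per library and the others had at least 232. Markers of other cell types were present too, and several of their sums differed between the genotypes. The summed level of the RPE markers was 18450 to 19600 CPM in Bbs8+/+ and 19940 to 20420 CPM in Bbs8-/-. Of the 12, 9 had a log2 fold change above 0 and 3 (Rpe65, Lrat and Kcnj13) below, where 49.5% of all tested genes were above. Otx2 was the only one past FDR 0.05, which 2.24% of all tested genes passed (554.4 and 771.0 CPM, edgeR FDR 6.01e-12), and Ttr carried most of the sum (10940 and 11660 CPM). The summed level of 10 lens markers was 50.72 to 65.92 and 339.3 to 380.6 CPM, a difference carried by the 5 that were up-regulated, the crystallin genes Cryaa, Cryba1, Crygb, Crygc and Crygd, while the other 5 did not pass. Reads outside annotated genes were 42.1% to 43.4% of reads in Bbs8+/+ and 44.1% to 44.4% in Bbs8-/-, and the part of that difference in the results was not tested. Xist and Y-linked transcripts were found in all 8 libraries, the Y-linked sum being 58.98 to 64.91 CPM in Bbs8+/+ and 108.1 to 119.5 CPM in Bbs8-/- (a ratio of means of 1.86). The part of that difference in the results was not tested. The labels number 4 samples per genotype and do not say how many mice each one holds. Transcripts of both kinds at these levels in every library are not those of a single male or a single female. Each library may therefore hold more than a single animal, which was not tested, and n = 4 counts libraries and not mice.

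Across the 30 synthesis genes, one was up-regulated and one was down-regulated in Bbs8-/- eyecups. Mvd, which encodes the enzyme that makes isopentenyl diphosphate from mevalonate diphosphate, rose by 59.8%, and Elovl6, which encodes the elongase that extends palmitate to stearate, fell by 25.8%. The other 27 tested members did not pass the test. The median log2 fold change of the 29 members tested was 0.04, against -0.0041 for all 13813 tested genes, with 16 members above 0 and 13 below.
The 2 members past FDR 0.05 were 6.9% of the 29, where 2.24% of all tested genes passed (1.1% upward and 1.14% downward). At an unadjusted p under 0.05 there were 5 members (17.2%), 3 higher and 2 lower in Bbs8-/-, against 13.0% of all genes (6.38% higher and 6.6% lower). In 2 members (6.9%), 1 in each direction, the genotypes did not overlap, against 7.38% of all genes (3.62% higher and 3.76% lower). The last of these shares is near the background, and the first rests on a pair of genes. For 28 of the 29 members the 95% confidence interval of the log2 fold change lay within 1 of 0 on either side, so a doubling or halving lay outside it. The exception was Mvd itself, with an interval from 0.32 to 1.06.

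**Figure D1:**
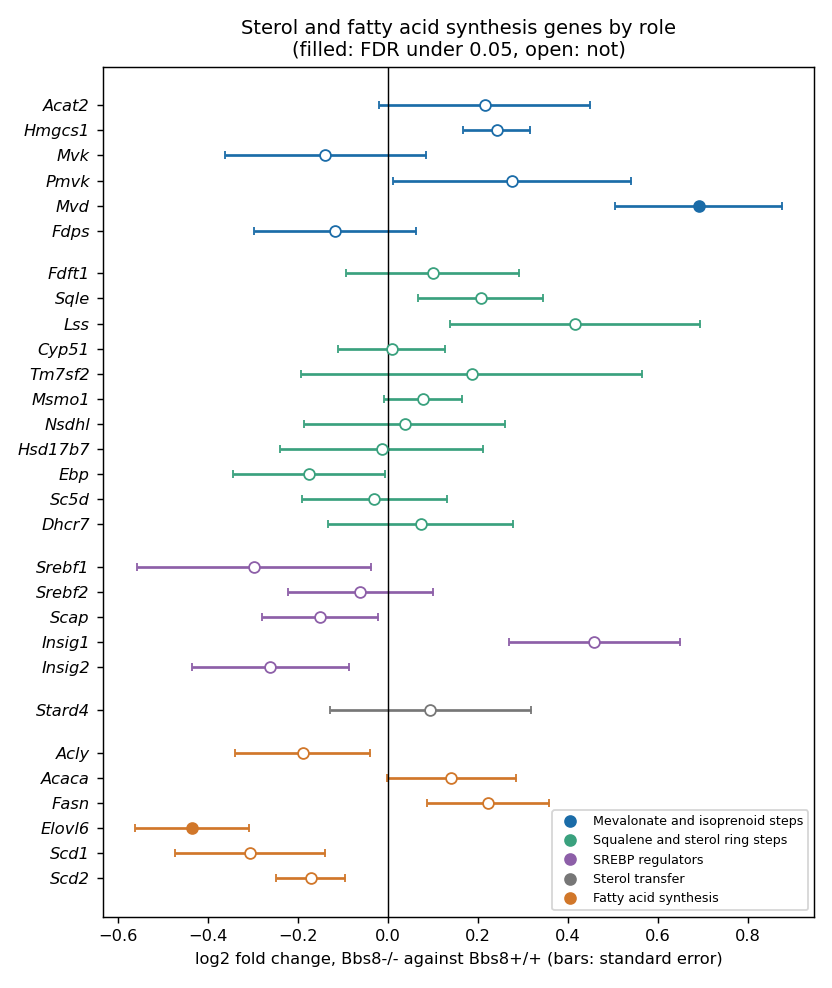
Fitted log2 fold change of Bbs8-/- against Bbs8+/+ (x axis) for each of the 29 tested members (y axis), coloured by role, with bars of 1 standard error either side. Mvd (0.69) and Elovl6 (-0.43) are the filled points past FDR 0.05, and the squalene and sterol ring genes spread around a median of 0.07.

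**Figure D2:**
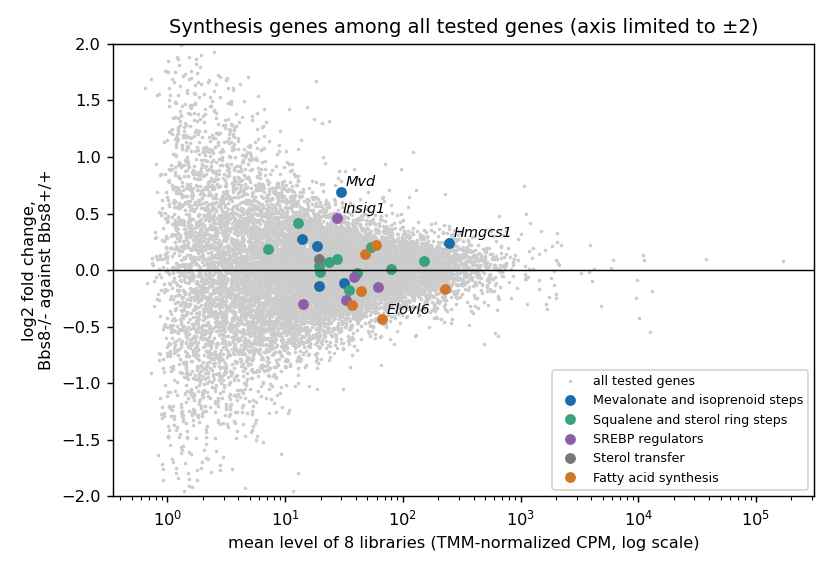
Log2 fold change (y axis, limited to 2 either side of 0) against the mean level of the 8 libraries (x axis, TMM-normalized CPM on a log scale) for all tested genes in grey and the members in colour. Mvd (0.69) is the highest and Elovl6 (-0.43) the lowest of the members, and most of the others lie close to the line at 0.

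In the first segment of the route, from acetyl-CoA to farnesyl diphosphate, 6 of 7 genes could be tested. Mvd (chr8:122433601-122443422) stood at 22.4, 23.2, 28.49 and 17.8 CPM in the replicates of Bbs8+/+ and at 36.99, 30.28, 41.27 and 38.29 CPM in those of Bbs8-/-. All Bbs8-/- libraries lay above all Bbs8+/+ libraries, the nearest pair being 28.49 and 30.28 CPM. The means were 22.97 ± 4.378 and 36.71 ± 4.644 CPM (SD, n = 4 each), which gave a log2 fold change of 0.69 with SE 0.185 (edgeR FDR 0.0182). Between 51 and 90 counts per library lay behind these levels. With 1 library left out the value ranged from 0.58 to 0.80, and the call was lost without Bbs8+/+ replicate 4 (FDR 0.112) or without Bbs8-/- replicate 1, 3 or 4 (FDR 0.0502, 0.107 and 0.0691).

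Hmgcs1 (chr13:119690379-119708260) encodes the cytosolic synthase that adds an acetyl-CoA unit on the way to mevalonate. Its level was 219.7, 209.2, 252.2 and 221.6 CPM in Bbs8+/+ and 268.7, 272.5, 288 and 236.7 CPM in Bbs8-/-. In 3 of 4 Bbs8-/- libraries it was above every Bbs8+/+ library, while replicate 4 of Bbs8-/- fell below replicate 3 of Bbs8+/+. The means were 225.7 ± 18.49 and 266.5 ± 21.51 CPM (SD, n = 4 each), and the log2 fold change of 0.24 with SE 0.074 missed the threshold (edgeR FDR 0.0584). It passed without Bbs8+/+ replicate 3 (FDR 0.0148) or without Bbs8-/- replicate 4 (FDR 0.0202). In the other fits that left out a library Hmgcs1 did not pass, with FDR up to 0.25, and DESeq2 did not call it.

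The other enzymes of this segment did not pass the test. Acat2, the cytosolic thiolase at the start of the route, had a log2 fold change of 0.21 (edgeR FDR 0.78) and Pmvk, the second mevalonate kinase, 0.28 (FDR 0.74). Mvk, the first of these kinases, stood at -0.14 (FDR 0.868) and Fdps, which makes farnesyl diphosphate, at -0.12 (FDR 0.856). Each of these 4 genes had between 19 and 102 counts in every library, and their standard errors were 0.18 to 0.27. Idi1, the isomerase that follows Mvd, had 0 to 2 counts in any library and could not be tested, and no change in it could be seen at this depth. Over the 6 tested genes the median log2 fold change was 0.23. Acat2 has a close paralog, so the division of its reads is uncertain.

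No squalene or sterol ring gene was called. By edgeR none of the 11 passed FDR 0.05 and none reached an unadjusted p under 0.05, where 13.0% of all genes did, and DESeq2 gave the same 2 counts of 0. The median log2 fold change was 0.07, with 8 genes above 0 and 3 below. Sqle, the monooxygenase that forms squalene epoxide, was 42.49 to 56.22 CPM in Bbs8+/+ and 49.49 to 69.44 CPM in Bbs8-/- (log2 fold change 0.21, edgeR FDR 0.571). Lss, the cyclase that closes lanosterol, had the highest value of the group at 0.42 (FDR 0.568), and its SE of 0.278 came from 15 to 39 counts per library. It was 0.21 without Bbs8+/+ replicate 2 and 0.66 without Bbs8+/+ replicate 3. Msmo1, a C4 demethylation enzyme with the smallest SE of the group (0.087), averaged 148.5 ± 5.41 CPM in Bbs8+/+, against 157 ± 11.46 CPM in Bbs8-/- (SD, n = 4 each), with a 95% confidence interval of -0.09 to 0.25 on the log2 scale.

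Fdft1, which joins farnesyl units to squalene, had a log2 fold change of 0.10 (edgeR FDR 0.895), and Cyp51, the lanosterol demethylase, one of 0.01 (FDR 0.989). The sterol reductase gene Tm7sf2 stood at 0.19 (FDR 0.901) with 7 to 21 counts per library. Nsdhl and Hsd17b7, which act with Msmo1 in C4 demethylation, were at 0.04 and -0.01. Ebp, the sterol isomerase, was at -0.18 (FDR 0.74), and Sc5d and Dhcr7, which act late in the route, were at -0.03 and 0.07. Fdft1 overlaps Ctsb and Cyp51 overlaps Akap9 on the opposite strand, both of them expressed here, at 227 and 403 CPM. Tm7sf2 overlaps Vps51 on its own strand (3.33 CPM). The strand setting of the counting is not given in the sources used here, so these 3 levels are uncertain. Nsdhl and Ebp are X-linked, and Xist itself was 640.5 to 746.2 CPM in Bbs8+/+ and 570.0 to 624.6 CPM in Bbs8-/-; its part in their values was not tested.

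Taken from acetyl-CoA to cholesterol, 12 of 17 tested genes lay above 0 and 5 below, a share to be read beside the 49.5% of all tested genes that lay above 0. The summed level of the 18 genes of the route was 823.3, 771.0, 827.0 and 749.7 CPM in Bbs8+/+ and 874.5, 895.9, 868.1 and 832.1 CPM in Bbs8-/-. The genotypes did not overlap in this sum, although the highest Bbs8+/+ and the lowest Bbs8-/- library were only 827.0 and 832.1 CPM. The ratio of the means was 1.09. When levels were scaled by total counts alone, which was tried after these sums had been seen, the ratio was again 1.09 but the genotypes overlapped (744.5 to 839.2 CPM in Bbs8+/+ and 817.5 to 892.0 CPM in Bbs8-/-). Without Hmgcs1, also tried afterwards, the ratio was 1.06 and the genotypes overlapped (528.1 to 603.6 and 580.1 to 623.4 CPM). For the mevalonate and isoprenoid segment the ratio was 1.17 and for the squalene and sterol ring segment 1.04, and in both the genotypes overlapped. Over all 30 genes the sums were 1475 to 1522 CPM in Bbs8+/+ and 1438 to 1597 CPM in Bbs8-/-.

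**Figure D3:**
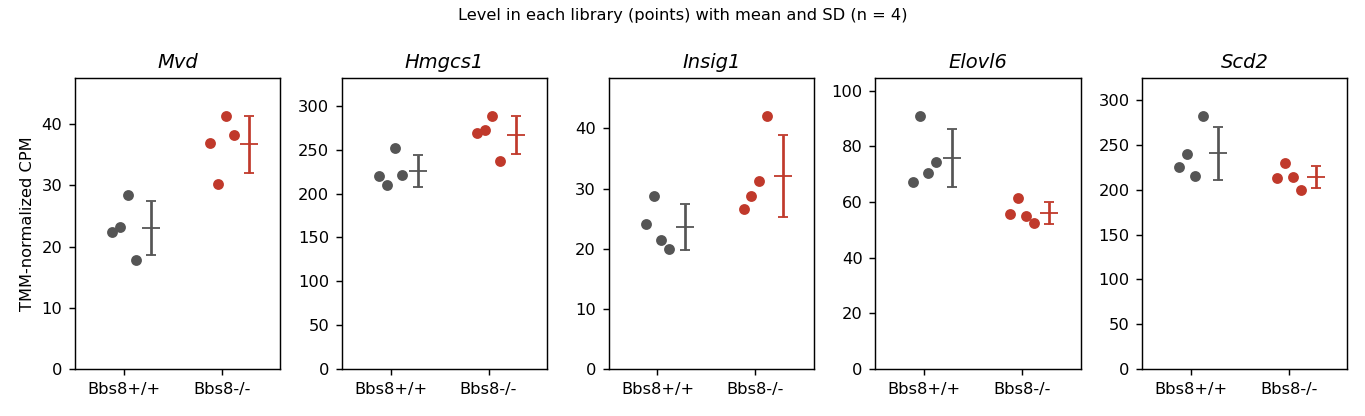
Level of the 5 members with an unadjusted p under 0.05 in each library (y axis, TMM-normalized CPM, starting at 0) by genotype, with the mean and SD of 4 libraries beside the points. The genotypes are separate for Mvd and Elovl6 and overlap for Hmgcs1, Insig1 and Scd2.

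None of the 5 SREBP regulators passed FDR 0.05 by edgeR or DESeq2, where 2.24% of all tested genes passed by edgeR. At an unadjusted p under 0.05 there was 1 of the 5, against 13.0% of all tested genes, and 4 had a log2 fold change below 0. Insig1, the sterol-responsive retention protein and itself a target of SREBP, was 24.13, 28.7, 21.48 and 19.9 CPM in Bbs8+/+ and 26.68, 28.72, 31.18 and 42.02 CPM in Bbs8-/-. Replicate 4 was the highest of the Bbs8-/- libraries, and replicate 2 was level with the highest Bbs8+/+ library. The log2 fold change was 0.46 with SE 0.19 (unadjusted p 0.0175, edgeR FDR 0.247), and it was 0.30 (FDR 0.642) without Bbs8-/- replicate 4. Insig2, its paralog, went the other way without passing the test, from 36.06 ± 4.242 to 30.12 ± 5.444 CPM (SD, n = 4 each; log2 fold change -0.26, edgeR FDR 0.567).
Srebf1, which encodes the SREBP forms that drive mainly fatty acid genes, had a log2 fold change of -0.30 with SE 0.259 (edgeR FDR 0.699). Srebf2, whose product drives mainly the cholesterol route, was nearly level at 39.33 ± 6.186 and 37.47 ± 2.646 CPM (SD, n = 4 each), with a 95% confidence interval from -0.38 to 0.26. Scap, the escort protein, stood at -0.15 (FDR 0.695). Stard4, which carries sterol between membranes, was 16.75 to 20.68 CPM in Bbs8+/+ and 17.74 to 24.02 CPM in Bbs8-/- (log2 fold change 0.09, FDR 0.918). Srebf1 overlaps Rai1 (21.3 CPM) on the opposite strand and shares the uncertainty named above. Transcript levels carry no information on how much SREBP protein was cut and active.

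In fatty acid synthesis 1 of 6 genes (16.7%) was down-regulated, against 1.14% of all tested genes, and none was up-regulated. Elovl6 (chr3:129532355-129638495) was 67.21, 90.82, 70.51 and 74.35 CPM in Bbs8+/+ and 55.79, 61.61, 55.03 and 52.3 CPM in Bbs8-/-. All Bbs8-/- libraries lay below all Bbs8+/+ libraries, and replicate 2 was the highest of each genotype. The means were 75.72 ± 10.48 and 56.18 ± 3.916 CPM (SD, n = 4 each), and the fitted difference was -0.43 on the log2 scale with SE 0.127 (edgeR FDR 0.0392). The call was not made by DESeq2 (FDR 0.0822). With 1 library left out the value ranged from -0.48 to -0.33, and the call was lost without Bbs8+/+ replicate 2 or 4 or Bbs8-/- replicate 1, 3 or 4, with FDR up to 0.283 when Bbs8+/+ replicate 2 was left out.

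Scd2, a desaturase that places the first double bond in saturated fatty acids, was 225.3, 239.4, 215.3 and 282 CPM in Bbs8+/+ and 213.5, 229.7, 214.6 and 199.4 CPM in Bbs8-/-. In 3 Bbs8-/- libraries it was below every Bbs8+/+ library, and replicate 4 was the highest of Bbs8+/+ and the lowest of Bbs8-/-. The log2 fold change was -0.17 with SE 0.0769 (unadjusted p 0.0273, edgeR FDR 0.304), and it was -0.08 (FDR 0.759) without Bbs8+/+ replicate 4. Scd1, the neighbouring desaturase, had a log2 fold change of -0.31 (FDR 0.44). The Scd genes lie together on chromosome 19 and are close copies, so how their reads were divided is uncertain.
The enzymes that come before elongation did not share one direction. Acly, which supplies cytosolic acetyl-CoA from citrate, had a log2 fold change of -0.19 (edgeR FDR 0.651). Acaca, the carboxylase that makes malonyl-CoA, stood at 0.14 (FDR 0.763) and Fasn, the fatty acid synthase, at 0.22 (FDR 0.512). The sum of the 6 genes was 476.9 to 552.5 CPM in Bbs8+/+ and 416.0 to 509.0 CPM in Bbs8-/-, with overlap between the genotypes.

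Related genes outside the 30 were examined in 5 lists. Among 8 genes for SREBP cleavage and sterol-sensing turnover, such as the proteases Mbtps1 and Mbtps2, none passed FDR 0.05 and none had an unadjusted p under 0.05, and the median log2 fold change was 0.08. Among 12 fatty acid oxidation genes, such as Cpt1a and Acadm, none passed and none had an unadjusted p under 0.05, with a median of -0.02. In both lists these counts were 0 by edgeR and by DESeq2, where by edgeR 2.24% of all tested genes passed and 13.0% had an unadjusted p under 0.05. 
Sterol uptake, transport, esterification and export held 1 up-regulated gene among 16 tested (6.25%, against 1.1% of all tested genes) and no down-regulated one. Lrp8, a lipoprotein receptor of the LDL receptor family that also binds reelin, was 138.3, 145.5, 168.6 and 150.4 CPM in Bbs8+/+ and 175.3, 205.7, 214.1 and 203.6 CPM in Bbs8-/-. The genotypes did not overlap in Lrp8, which was 1 of 16 tested genes (6.25%, against 7.38% of all tested genes). The means were 150.7 ± 12.92 and 199.7 ± 16.9 CPM (SD, n = 4 each). The log2 fold change was 0.41 with SE 0.0837 (edgeR FDR 0.000404), and the call held in all 15 alternatives. The other receptors did not pass the test, with Vldlr at 0.0005 (FDR 0.999), Lrp1 at -0.13 (FDR 0.435) and Scarb1 at -0.12 (FDR 0.699). The exporter Abca1 stood at -0.07 (FDR 0.868) and the esterifying enzyme Soat1 at 0.18 (FDR 0.522).

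The branches that leave the isoprenoid segment held 1 down-regulated gene among 11 tested (9.09%, against 1.14% of all tested genes) and no up-regulated one. Nus1, one subunit of the enzyme that makes the dolichol chain, was 32.74, 34.6, 31.29 and 32.46 CPM in Bbs8+/+ and 16.37, 22.45, 27.51 and 15.88 CPM in Bbs8-/-. All Bbs8-/- libraries were lower, and they were spread more widely than those of Bbs8+/+. The log2 fold change was -0.66 with SE 0.195 (edgeR FDR 0.0436). This call was fragile: it was not made by DESeq2 and was lost in 7 of the 8 fits that left out a library, with FDR up to 0.224, being kept only without Bbs8-/- replicate 3.
Dhdds, the catalytic subunit of the same enzyme, was 24.13, 25.56, 21.01 and 26.53 CPM in Bbs8+/+ and 27.29, 39.16, 37.6 and 28.02 CPM in Bbs8-/-. Here the Bbs8-/- libraries were all higher, but the log2 fold change of 0.44 with SE 0.186 did not pass (unadjusted p 0.0197, edgeR FDR 0.264). Nus1 and Dhdds were the 2 of 11 tested genes (18.2%) in which the genotypes did not overlap, against 7.38% of all tested genes, a share that rests on a pair of genes. The genes for farnesyl and geranylgeranyl transfer and synthesis, Fnta, Fntb, Pggt1b and Ggps1, stood between -0.28 and 0.07 on the log2 scale and did not pass.

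In the wider group of fatty acid synthesis, elongation and desaturation, 2 of 23 tested genes (8.7%) were down-regulated and none was up-regulated, where 1.14% of all tested genes were down-regulated. DESeq2 called 1 of the 2. Me1, the malic enzyme that supplies NADPH for lipogenesis, was 162.9, 156.5, 180.3 and 178 CPM in Bbs8+/+ and 130.4, 155.1, 132.1 and 118.1 CPM in Bbs8-/- (log2 fold change -0.34, SE 0.089, edgeR FDR 0.0142). Elovl7, another elongase of long chains, was 190.9, 185.2, 184.9 and 208.4 CPM in Bbs8+/+ and 158.9, 178.6, 161.4 and 134.9 CPM in Bbs8-/- (log2 fold change -0.28, SE 0.0841, edgeR FDR 0.046). In both genes, 2 of the 23 tested (8.7%, against 7.38% of all tested genes), the genotypes did not overlap, and replicate 2 came nearest among the Bbs8-/- libraries. Without 1 library, Me1 lost its call in 5 of 8 fits (without Bbs8+/+ replicate 3 or 4 or Bbs8-/- replicate 1, 3 or 4, with FDR up to 0.13) and Elovl7 in 6 of 8 (all but Bbs8+/+ replicate 3 and Bbs8-/- replicate 2, with FDR up to 0.301), and Elovl7 was also not called with RLE size factors (FDR 0.0508) or by DESeq2 (FDR 0.0967).
The other elongases and desaturases that could be tested did not pass. Elovl1, Elovl2 and Elovl5 had log2 fold changes of 0.19, 0.45 and -0.10, and Fads1, Fads2 and Fads3 0.15, 0.94 and 0.19, with 3 to 12 counts per library behind Fads2. Elovl3, Scd3 and Scd4, with 0 to 3 counts per library, were not tested.

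**Figure D4:**
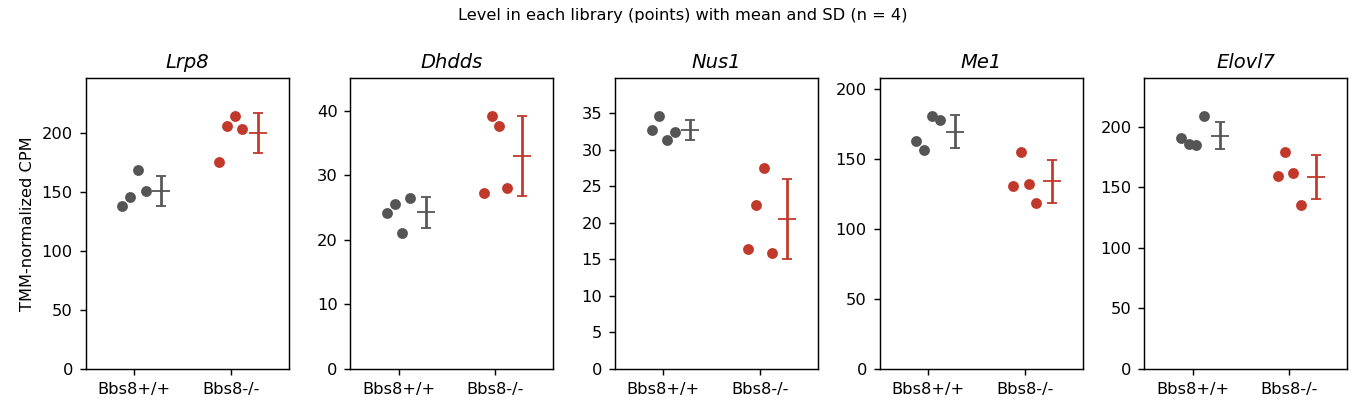
Level of Lrp8, Dhdds, Nus1, Me1 and Elovl7 in each library (y axis, TMM-normalized CPM, starting at 0) by genotype, with the mean and SD of 4 libraries beside the points. The genotypes do not overlap in any of the 5 panels. Lrp8 and Dhdds are higher and Nus1, Me1 and Elovl7 lower in Bbs8-/-. The 5 genes were picked by their p-values, and the genotypes do not overlap in 7.38% of all tested genes.

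Because eyecups are mixed tissue, fewer cells of a type and less RNA per cell cannot be told apart in these levels, and the markers of cells rich in lipid synthesis were set beside them. Myelinating glia make much sterol and long-chain lipid. Their 12 markers summed to 434.3 to 489.5 CPM in Bbs8+/+ and 324.5 to 381.5 CPM in Bbs8-/- (two-sided exact permutation p = 0.0286, the smallest that 4 against 4 libraries allow), all 12 had a log2 fold change below 0 (49.5% of all tested genes were above 0), and 4 were down-regulated by edgeR (33.3%, against 1.14% of all tested genes).
Fibroblast markers summed to 34870 to 36630 CPM in Bbs8+/+ and 27450 to 28660 CPM in Bbs8-/-, pigment cell markers to 14130 to 14830 and 11710 to 12290 CPM, and photoreceptor markers to 497.6 to 559.0 and 386.1 to 437.0 CPM. Most of the fibroblast sum came from the collagen genes Col1a1 (means 11700 and 8737 CPM) and Col1a2 (15100 and 10290 CPM), which were down-regulated, as was Col3a1 (2140 and 1846 CPM). Of the 8 fibroblast markers, 6 had a log2 fold change below 0 and 2 (Dcn and Lum) above. Of the 10 pigment cell markers 6 were down-regulated (1.14% of all tested genes were), with Dct carrying most of the sum (10360 and 8721 CPM), while Sox10, Kit and Tyr did not pass (edgeR FDR 0.878, 0.974 and 0.955). The RPE is itself a pigmented epithelium, so this sum does not tell pigment cells of the choroid from the RPE. Macrophage markers were 420.1 to 476.5 CPM in Bbs8+/+ and 506.3 to 555.2 CPM in Bbs8-/-, and skeletal muscle markers 2772 to 2939 and 3027 to 3247 CPM. Of the 8 muscle markers edgeR called none and DESeq2 called 1, where edgeR called 2.24% of all tested genes. By each tool 2 had an unadjusted p under 0.05 (25.0%, against 13.0% of all tested genes by edgeR). Of the 8, 2 had a log2 fold change below 0, and Ttn was the largest part of the sum (1355 and 1498 CPM). The fibroblast, pigment cell, photoreceptor, macrophage and muscle sums each separated the genotypes (exact permutation p = 0.0286), whereas the endothelial sum, at 739.7 to 794.9 and 784.1 to 853.8 CPM, overlapped (exact permutation p = 0.0571). The glial, fibroblast, pigment cell and photoreceptor sums were lower in Bbs8-/-, as were Elovl6, Me1, Elovl7 and Nus1. The RPE, lens, macrophage and muscle sums were higher, as were Mvd and Lrp8. Only the direction of the genotype means is compared here, and any sum that differs shares its direction with some of these genes. The part of these cell types in the results for the synthesis genes was not tested.
Adipocytes are lipogenic cells. Of their 8 markers, Adipoq, Cidec, Lep, Cfd and Pck1 were at 0 in all libraries and Plin1 had at most 2 counts. The sum, carried by Fabp4 and Lipe, was 18.09 to 28.87 CPM in Bbs8+/+ and 15.41 to 27.67 CPM in Bbs8-/-.

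**Figure D5:**
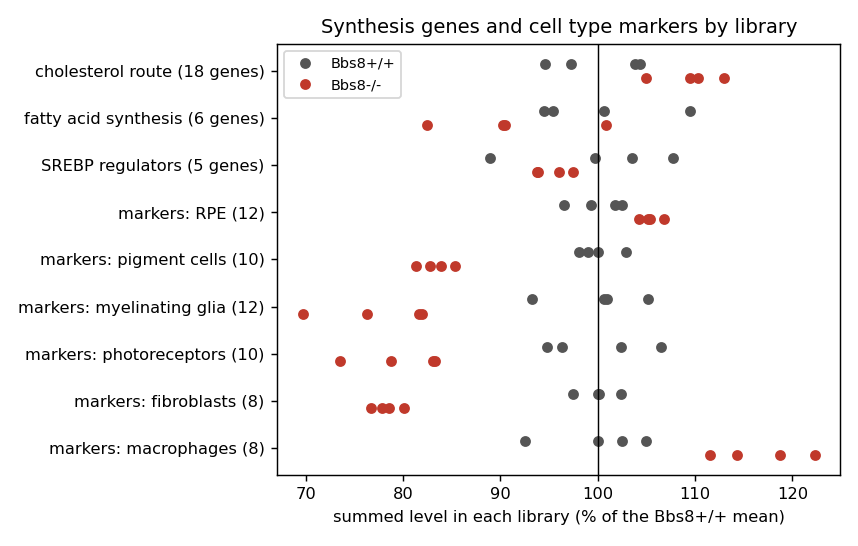
Summed level of 3 member groups and 6 marker lists in each library (x axis, percent of the Bbs8+/+ mean of that list), grey for Bbs8+/+ and red for Bbs8-/-, with the number of genes beside each name. The cholesterol route lies slightly higher in Bbs8-/- on this TMM scale and overlaps when scaled by total counts alone or without Hmgcs1, fatty acid synthesis and the SREBP regulators overlap, and the 6 marker lists are each separate.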

How the data were processed

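RNA of 8 P11 eyecup preparations was read by single-end QuantSeq 3′ sequencing. The authors trimmed the reads, aligned them with STAR to mm10 and counted uniquely aligned reads per gene with htseq-count, and the deposited values are these raw counts, not normalized, in one file per library. The gene model was an Ensembl one. The strand setting is not given in the sources used here, and no molecular identifiers are named, so depth limits cover counting error only. Of 31053 identifiers, 31011 matched the GENCODE M21 annotation of the same build, which supplied symbols and 1-based positions. Summary lines of the counter were left out of library sizes; reads outside annotated genes, given as a share of the reads in genes or outside them, were 42.1% to 43.4% in Bbs8+/+ and 44.1% to 44.4% in Bbs8-/-.

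Genes reaching 1 CPM in 4 or more libraries were fitted in edgeR 4.0.16 (R 4.3.3; quasi-likelihood F test, two-sided, TMM, genotype as sole factor, FDR 0.05 over all tested genes). The standard error is the log2 fold change over the square root of F. Where nothing says that libraries came from separate litters, p-values measure the spread between these libraries; the study's methods count each animal as a biological replicate. The members and the other lists were chosen with earlier results of these data known. All 30 members are reported; of the related lists, genes past FDR 0.05 and up to 3 others of smallest p under 0.05 are given in full, other genes being named as examples after their values were seen. The fit was first tested on simulated counts. Some genes of these routes are not reported here. Alternatives were RLE size factors, total counts, filterByExpr, no filter on low counts, DESeq2 1.42.0, the replicate number as a block, leaving out Gm42418 and mitochondrial genes, and leaving out each library; the sums scaled by total counts and without Hmgcs1 were added after seeing the data.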

Additional observations from a re-analysis of the deposited data

Results flagged for a closer look

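Among 68 sets of 4 libraries, one for each gene and genotype, 2 had a single library set apart from its companions by a wide gap (Dixon's criterion), and about 3.4 such sets arise by chance. Dhcr7 was 31.45 CPM in Bbs8+/+ replicate 1 against 19.2 to 20.84 CPM in the other Bbs8+/+ libraries. Scap was 64.28 CPM in Bbs8-/- replicate 1 against 55.34 to 56.86 CPM in the others. Neither gene passed the test between genotypes.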

How the results depend on the processing

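Of 15 alternatives, the number of up-regulated members changed from 1 to 2 with filterByExpr, where Hmgcs1 passed as well (FDR 0.0428), and ranged from 0 to 2 when a library was left out. The number of down-regulated members was 0 by DESeq2 and 0 with the replicate number as a block, where Elovl6 stood at -0.43 (FDR 0.0567), and ranged from 0 to 1 when a library was left out. Same-numbered libraries correlated at 0.020, 0.003, -0.050 and -0.056 in their deviations over 6626 genes, so the numbers do not pair the libraries. With the block, 134 genes were up-regulated and 129 down-regulated, and Elovl7 also missed the threshold (FDR 0.0734). Over all genes, leaving out a library gave 114 to 172 up-regulated and 101 to 150 down-regulated genes, the lowest of the latter without Bbs8-/- replicate 1. Among members not called, 11 of 27 changed sign in some fit, each with FDR of at least 0.617 there and everywhere else. Cyp51 did so with total counts (-0.0022), and the rest only when a library was left out. These ranges were -0.0111 to 0.36 for Acat2, -0.26 to 0.0011 for Fdps, -0.0239 to 0.19 for Fdft1, -0.0693 to 0.13 for Cyp51, -0.11 to 0.37 for Tm7sf2, -0.16 to 0.14 for Nsdhl, -0.20 to 0.14 for Hsd17b7, -0.18 to 0.14 for Sc5d, -0.0079 to 0.26 for Dhcr7, -0.12 to 0.0443 for Srebf2 and -0.0021 to 0.15 for Stard4. The median of all members ranged from -0.0239 (without Bbs8+/+ replicate 4) to 0.13 (without Bbs8+/+ replicate 1), that of the cholesterol route from 0.0332 to 0.18, that of the mevalonate segment from 0.11 to 0.27 and that of the squalene and sterol ring steps from -0.0079 to 0.14. The cause of these shifts was not tested. At 7 to 21 counts per library Tm7sf2 had a wide interval, and Idi1 could not be tested.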
